A study of Homo sapiens with 12 samples.

Results

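The comparison described here is that of the 56-mer with control in 22RV1, a castration-resistant human prostate carcinoma cell line established from a xenograft. Its members are 6 of the 12 libraries of the study, chosen by the cell line and treatment in their labels and by no measured value. Control libraries 1, 2 and 3 came from cells kept for 48 h in a glutamine-free RPMI medium with fetal bovine serum, to which L-glutamine was returned at 2 mM. Libraries 4, 5 and 6, called 56-mer 4, 5 and 6, came from cells that received the same glutamine and, for the same 48 h, the 56-mer at 50 nM. The 56-mer is an aptamer, that is, a single-stranded oligonucleotide that folds into a shape able to bind a target. The labels give the genotype of every library as wild type, and the series text calls the libraries biological triplicates. The other 6 libraries are of a second castration-resistant line, C4-2B, under the same treatments. The control cells received no oligonucleotide according to the labels, so an effect of this aptamer and an effect of any oligonucleotide at this dose cannot be told apart. The comparison asks which transcripts of glutamine-supplied 22RV1 cells differ when the aptamer is present.

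As background, most of the results concern mitochondrial RNA. Human mitochondria keep a small circular genome that encodes 13 proteins of the respiratory chain and ATP synthase, 2 ribosomal RNAs and 22 transfer RNAs. It is transcribed as long RNAs that span many genes, by the polymerase POLRMT with the DNA-packaging factor TFAM, and the transfer RNAs are then cut out to free the messages. Pieces of mitochondrial DNA have also been copied into the nuclear chromosomes, where they persist as pseudogenes with almost the same letters, so that a short read can match both. Respiratory complexes are built from these proteins together with many nuclear-encoded subunits that are imported into the organelle.

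The libraries carried the markers of the luminal prostate epithelium. All 14 markers on the list passed the filter on low values. Keratin 8 (KRT8) lay between 8361 and 9891 normalized read counts over the 6 libraries, the homeobox factor HOXB13 between 2770.2 and 3215, and KLK3, which encodes prostate-specific antigen, between 1101 and 1409. A normalized read count is the number of reads divided by the library's size factor. Of 14 basal markers 7 passed the filter, among them DST, which lay between 1343 and 1723, and NGFR, between 84.8 and 127. The basal markers KRT5 and TP63 were listed at 0 in every library, and the leukocyte marker PTPRC reached at most 1.77.

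Between 8847368 and 13740386 reads per library were recovered from the table, the fewest in 56-mer 5, and between 28342 and 31010 entries had at least 1 read. One library stood apart, 56-mer 4. Across 12430 genes its deviation from the mean of the 6 libraries had a Spearman correlation of −0.583 with GC content, against −0.143 to 0.377 in the other 5, and it lay alone at one end of the first principal component, which held 34.2% of the variance. Between GC content and the change with 56-mer on the log2 scale the Spearman correlation was −0.187 across these genes, and 0.205 without 56-mer 4. These correlations are across genes of the same libraries, which are not independent replicates. The called genes and several other results, though not all, are therefore given with and without 56-mer 4.

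**Figure D1:**
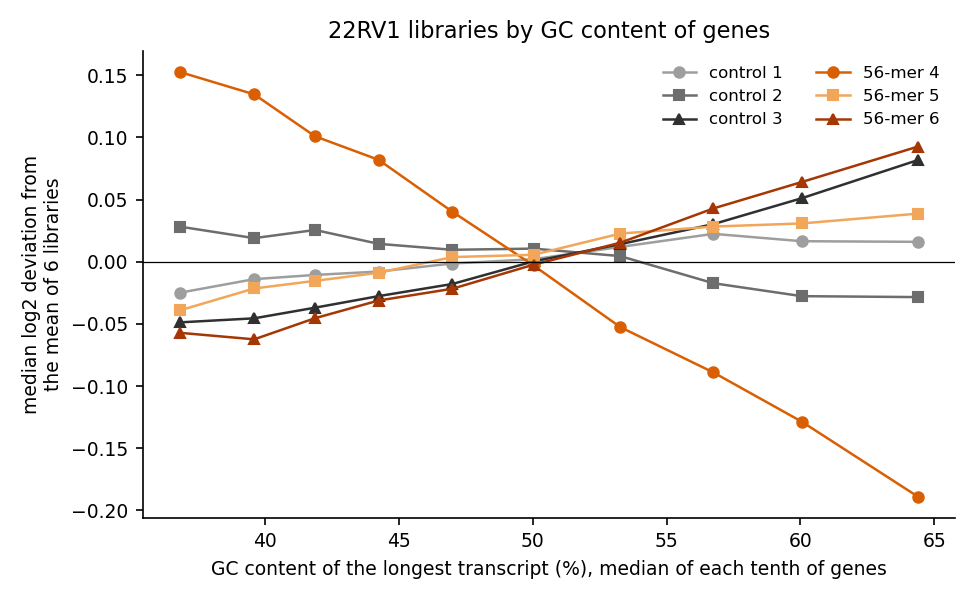
Median log2 deviation of each 22RV1 library from the mean of the 6 libraries (vertical axis), for genes sorted into 10 bins by the GC content of their longest transcript (horizontal axis, %). Circles, squares and triangles in grey are controls 1, 2 and 3 and those in orange are 56-mer 4, 5 and 6; the line of 56-mer 4 falls from low to high GC content (Spearman correlation −0.583), and those of the other 5 range from −0.143 to 0.377.

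Few transcripts passed the test. Of 20517 genes tested, 2 passed the threshold of 0.05 on the limma adjusted p, which is 0.00975% of them. Both were higher with 56-mer and both carry mitochondrial sequence. They were MT-ND4L, which encodes a membrane subunit of complex I, and MTATP6P1, the nuclear copy of the ATP synthase gene MT-ATP6. Without adjustment 803 genes (3.91%) had a p under 0.05, of which 362 were higher with 56-mer (1.76%) and 441 lower (2.15%). The values of the 2 groups did not overlap in 1852 genes (9.03%), with 912 higher (4.45%) and 940 lower (4.58%). Fitted log2 changes, on the scale of log2 of the normalized read count plus 1, were above 0 in 10129 genes and below 0 in 10388, with a median of −0.0026.

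The depth and the replicates set what could be seen. Among 12552 genes with a mean of at least 100 normalized read counts, 13 differed by at least 1.5-fold between the group means and 0 by at least 2-fold, and the largest fitted log2 change had a size of 0.75. Of the 9613 genes with a mean between 100 and 1000, 99.8% had a 95% interval of the log2 change that lay inside a 2-fold change in either direction, and 88.2% one inside a 1.5-fold change. Of the 2872 genes with a mean between 1000 and 10000 the shares were 100% and 99.8%. Among the 4260 genes with a mean under 30 the interval lay inside 2-fold in 3.83%. For most scarce transcripts a 2-fold change could therefore not be left out.

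**Figure D2:**
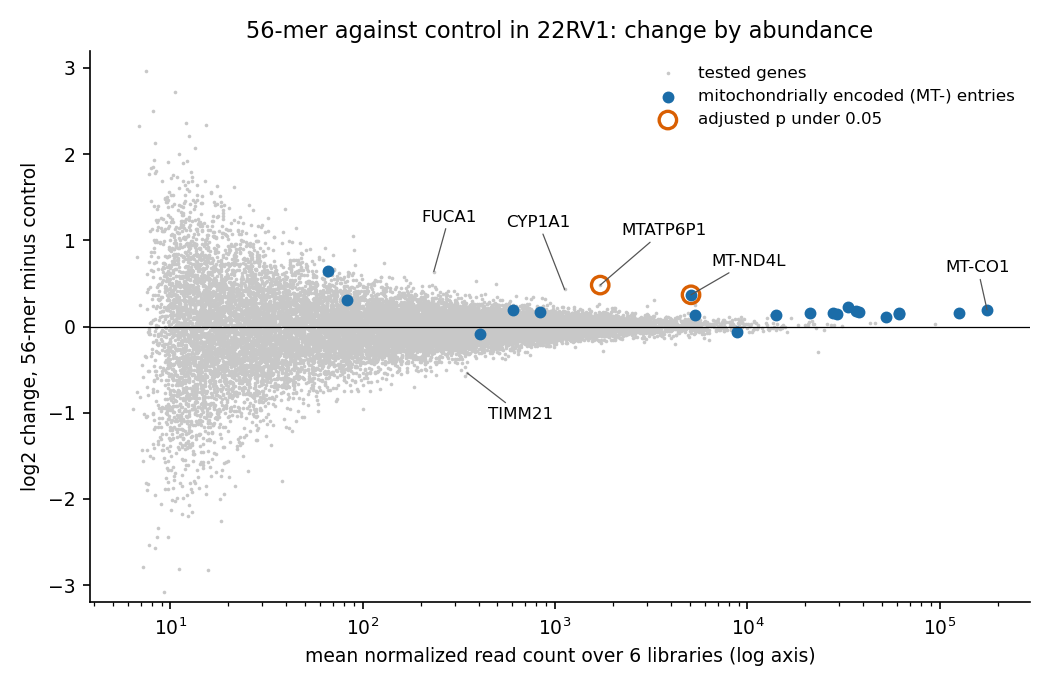
Fitted log2 change of 56-mer minus control (vertical axis) against the mean normalized read count over the 6 libraries of 22RV1 (horizontal, log axis) for the 20517 tested genes. Blue points are mitochondrially encoded entries and orange rings mark the 2 genes past the threshold, MTATP6P1 and MT-ND4L. The cloud narrows with abundance, and the abundant blue points sit on its upper edge with the authors' scaling. Under quantile normalization 8 of the 13 protein-coding entries were above 0 and 5 at 0, the value of any gene that keeps its rank.

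MT-ND4L is encoded directly before MT-ND4 and shares its last bases with the start of that gene, so that both are read from 1 RNA. It is printed here because it is the mitochondrial gene that passed. It is 297 bases long, and the capitals mark the 7 bases that also belong to MT-ND4 in the GENCODE 29 annotation, from whose transcripts it was taken by symbol.
MT-ND4L: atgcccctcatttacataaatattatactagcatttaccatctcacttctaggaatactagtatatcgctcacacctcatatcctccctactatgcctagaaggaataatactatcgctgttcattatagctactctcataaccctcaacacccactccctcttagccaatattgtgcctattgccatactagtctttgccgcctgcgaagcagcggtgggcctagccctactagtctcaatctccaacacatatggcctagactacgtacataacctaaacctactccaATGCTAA

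MTATP6P1 and MT-ATP6 are both 681 bases long and identical at 671 positions (98.5%). The stretch of 120 bases with the most differences, bases 73 to 192 of both, holds 4 of the 10 differing bases, which are in capitals. It is shown because a read over these bases can tell the copy from the original, as can a read over the differing bases elsewhere.
MTATP6P1: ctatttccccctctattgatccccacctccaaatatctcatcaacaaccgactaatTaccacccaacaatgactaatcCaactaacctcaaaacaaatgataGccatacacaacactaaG
MT-ATP6: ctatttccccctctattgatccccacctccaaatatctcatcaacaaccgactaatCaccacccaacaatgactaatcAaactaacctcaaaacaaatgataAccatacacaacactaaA

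A read of 100 bases from MTATP6P1 would match MT-ATP6 without a mismatch in 69 of its 582 possible positions, and the longest stretch shared by both runs over 141 bases. It follows base 192 of both genes and is shown with its flanks, bases 188 to 338, the 2 bases that differ in capitals.
MTATP6P1: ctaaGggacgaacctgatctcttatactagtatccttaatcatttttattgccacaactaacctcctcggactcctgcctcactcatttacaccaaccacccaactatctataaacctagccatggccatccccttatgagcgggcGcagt
MT-ATP6: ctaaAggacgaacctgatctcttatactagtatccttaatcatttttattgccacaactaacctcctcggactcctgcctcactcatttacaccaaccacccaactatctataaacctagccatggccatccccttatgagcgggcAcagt

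How the authors assigned reads that match both is not stated in the labels or files used here. The counts of MTATP6P1 may hold reads of MT-ATP6 and are uncertain.

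MT-ND4L had 4512, 4279 and 4503 normalized read counts in controls and 6357, 5768 and 5104 with 56-mer. Each 56-mer library was above each control, with 56-mer 4 the highest and 56-mer 6 the nearest to the controls. The means were 4431 ± 132 in controls and 5743 ± 627 with 56-mer (SD, n = 3), and the fitted log2 change was 0.37 ± 0.066 (SE, limma adjusted p = 0.0119). MTATP6P1 had 1521, 1338 and 1429.6 in controls and 2197, 2037 and 1770.2 with 56-mer, again without overlap and in the same order of libraries. Its log2 change was 0.48 ± 0.084 (limma adjusted p = 0.0119). Without 56-mer 4 both still passed, at 0.29 and 0.41 (adjusted p = 0.00476 for each). Both lost the call when control 1, control 2, control 3 or 56-mer 5 was left out, with adjusted p between 0.138 and 0.374 for MT-ND4L and between 0.0800 and 0.374 for MTATP6P1.

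The proteins of complex I, which takes electrons from NADH, are encoded by 7 of the 13 genes. MT-ND1 had 27276, 28100.4 and 27207 normalized read counts in controls and 32496, 30451 and 28870.4 with 56-mer, and MT-ND2 had 26597, 26288 and 26429.8 in controls and 31203, 29039.8 and 28424 with 56-mer. In both the groups did not overlap, and the log2 changes were 0.15 ± 0.044 and 0.16 ± 0.044. In MT-ND3, MT-ND4, MT-ND5 and MT-ND6 the groups overlapped, with log2 changes of 0.13, 0.16, 0.14 and 0.15. MT-ND6 is the protein gene on the other strand of the circle, and whether the counting used the strand is not given.

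MT-CYB, which encodes cytochrome b in complex III, had 31106, 30423 and 30428 normalized read counts in controls and 40080.1, 33804 and 34488 with 56-mer. The groups did not overlap, the log2 change was 0.23 ± 0.047, and it missed the threshold (limma adjusted p = 0.0724), which it passed without 56-mer 4 (log2 change 0.16, adjusted p = 0.0350) and without 56-mer 6 (0.0166). Cytochrome c oxidase, the last complex of the chain, has 3 mitochondrial subunits. MT-CO1 had 164204, 169140.0 and 158481 in controls and 203912, 188612 and 171685 with 56-mer, and its log2 change was 0.20 ± 0.043 (limma adjusted p = 0.484). MT-CO2 had a log2 change of 0.16 ± 0.041 without overlap of the groups, and MT-CO3 one of 0.18 ± 0.046 with overlap. Of the ATP synthase subunits, MT-ATP6 had 35608, 36305 and 34771 normalized read counts in controls and 44178, 38429.6 and 37842 with 56-mer and a log2 change of 0.17 ± 0.045. MT-ATP8, which shares 46 bases with MT-ATP6, lay between 47.7 and 107 in the 6 libraries, and its groups overlapped.

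With the authors' scaling the mean of each of the 13 genes was higher with 56-mer, by 1.09- to 1.30-fold. The median log2 change was 0.16. Under quantile normalization 8 were higher and the other 5, MT-CO1, MT-ND4, MT-CO2, MT-ND5 and MT-CO3, were at 0. That scaling gives every rank a fixed value, so a gene that keeps its rank in all 6 libraries is at 0 whatever its reads. MT-CO1 was the most abundant entry, and 9 of the 13 were among the 20 most abundant. The 5 values at 0 therefore cannot decide whether these genes changed. With the authors' scaling the groups did not overlap in 7 of the 13, where the share over all genes is 9.03%. An unadjusted p under 0.05 in limma was found in 12, where that share is 3.91%. These genes are read from the same long RNAs and are not independent of each other. In 11 of the 13 the highest of the 6 libraries was 56-mer 4. Without 56-mer 4 the median was 0.12 with all 13 still higher. After correction of each library for GC content and length the median was 0.17, and 8 genes passed the limma test over all genes, each higher with 56-mer. They were MT-ND4L, MT-CYB, MT-ND1, MT-ND2, MT-CO2, MT-ATP6, MTATP6P1 and CYP1A1. The 13 genes had a GC content between 39.6% and 47.7%, below the median of 48.6% over tested genes.

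Of the ribosomal RNAs, which a library from messenger RNA holds in part only, MT-RNR2 had a log2 change of 0.11 ± 0.050. That of MT-RNR1 was −0.058 ± 0.23, and in both the groups overlapped. Without 56-mer 4 the log2 changes of MT-RNR2 and MT-RNR1 were 0.042 and −0.048. MT-RNR1 spread widely, with 11639.7, 7225 and 8292 normalized read counts in controls and 8396, 7399 and 9942 with 56-mer. Of the 22 transfer RNAs 5 passed the filter, 4 of them with a higher mean with 56-mer. MT-TS1, a serine transfer RNA on the other strand beside MT-CO1, had 13449.6, 13736 and 13039.8 in controls. With 56-mer it had 14862, 14836 and 14525, without overlap. Whether the counting used the strand is not given, so the counts of MT-TS1 may hold reads of the opposite strand and are uncertain. MT-TE, a glutamate transfer RNA, lay between 44.9 and 56 in controls and between 61.9 and 109.7 with 56-mer.

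**Figure D3:**
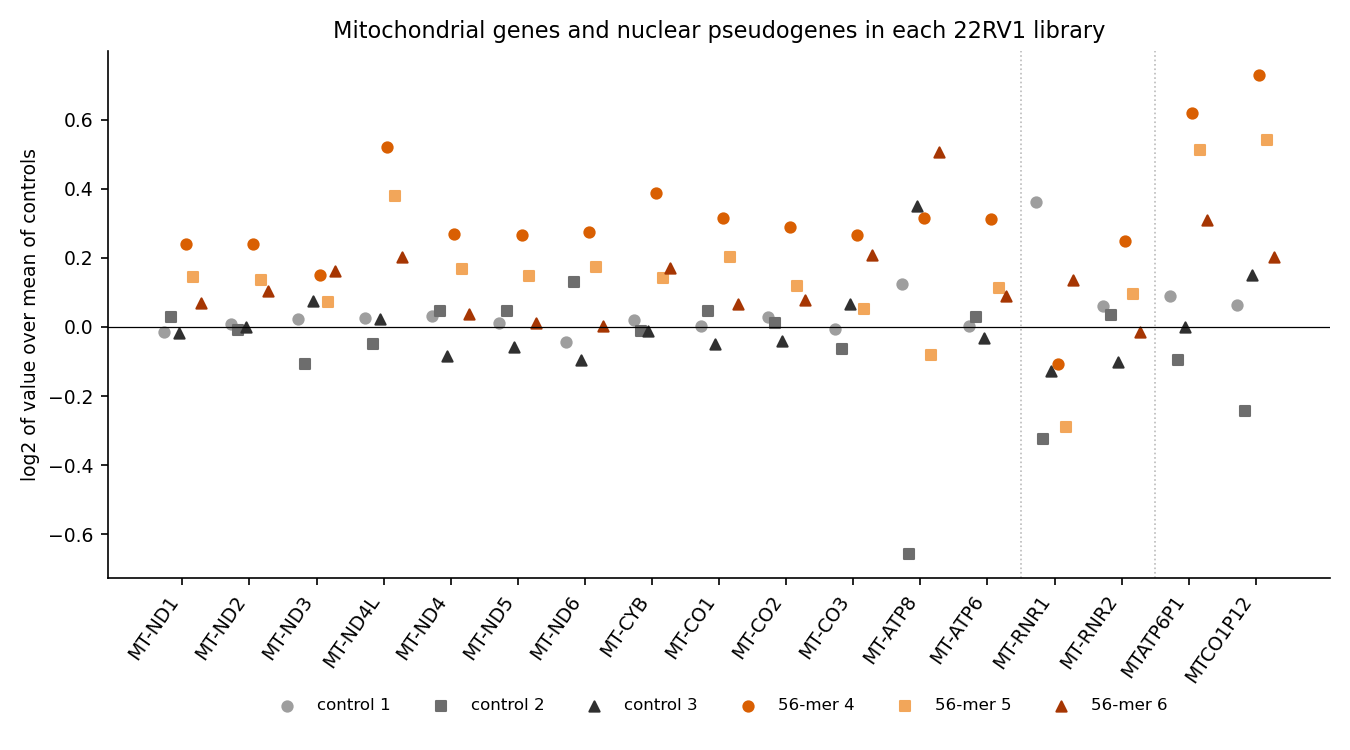
Values of mitochondrial genes and 2 nuclear pseudogenes in each 22RV1 library, as log2 of the value over the mean of the 3 controls (vertical axis); dotted lines part the 13 protein genes, the 2 ribosomal RNAs and the pseudogenes. Grey symbols are controls 1 to 3 and orange ones 56-mer 4 to 6; 56-mer 4 is the highest library in 11 of the 13 protein genes, and MT-ND4L stands farthest above its controls among the protein genes whose groups do not overlap. All 13 protein genes are higher in the mean as drawn. Under quantile normalization 8 are, with the other 5 at 0, the value of any gene that keeps its rank.

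Mitochondrially encoded entries together took the following shares of the reads: 5.56%, 5.57% and 5.32% in controls 1, 2 and 3 and 6.51%, 6.02% and 5.74% in 56-mer 4, 5 and 6. The means were 5.48% ± 0.143 and 6.09% ± 0.388 (SD, n = 3), without overlap, and the exact two-sided permutation p was 0.1, the smallest that 3 against 3 libraries allow. Without 56-mer 4 the difference of 0.606 percentage points was 0.397. The share of the mitochondrial ribosomal RNAs overlapped between the groups (exact two-sided permutation p = 0.4). In bulk RNA a change in RNA per cell and a change in the mix of cells cannot be told apart.

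Shares within a library do not depend on how libraries are scaled to each other. MT-ND4L had a share of the reads of the 13 protein genes of 0.769%, 0.719% and 0.796% in controls 1, 2 and 3 and 0.892%, 0.888% and 0.832% in 56-mer 4, 5 and 6. It was thus higher in each 56-mer library also relative to the genome it belongs to. Relative to MT-ND4, the gene it overlaps, it stood at 3.73%, 3.50% and 4.03% in controls 1, 2 and 3 and 4.45%, 4.34% and 4.20% in 56-mer 4, 5 and 6. How reads that span both genes were counted is not given, so these shares of MT-ND4L may depend on read assignment. MTATP6P1 relative to MT-ATP6 stood at 4.27%, 3.69% and 4.11% in controls 1, 2 and 3 and 4.97%, 5.30% and 4.68% in 56-mer 4, 5 and 6. In these 3 ratios the groups did not overlap, and each had an exact two-sided permutation p of 0.1, the smallest possible, and 0.533 after adjustment over the 16 ratios computed, which were chosen after the values were seen. The shares of the other 12 protein genes overlapped between the groups, among them MT-CYB with 5.12% to 5.38% in controls and 5.20% to 5.63% with 56-mer.

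The table lists 394 nuclear pseudogenes of mitochondrial genes, of which 15 passed the filter, and a scarce one could pass through the group in which it was higher. Of these 15, MTATP6P1 passed the test. MTCO1P12, a copy of MT-CO1 with 98.7% identity, had 423, 342 and 449.6 normalized read counts in controls and 672, 589 and 466 with 56-mer and a log2 change of 0.50 ± 0.13, without overlap. MTND4P12, 95.7% identical to MT-ND4, had 105, 91.4 and 102 in controls and 145, 135 and 167 with 56-mer and likewise did not overlap. Its log2 change was 0.58 ± 0.21. The other 12 overlapped between the groups, and the share without overlap over all genes is 9.03%. Of the 15, 13 were higher with 56-mer and 2 lower, beside 10129 higher of 20517 genes over all. MTCO1P12 as a share of MT-CO1 overlapped, with 0.202% to 0.284% in controls and 0.271% to 0.329% with 56-mer. A read of 100 bases from MTCO1P12 would match MT-CO1 without a mismatch in 402 of its 1444 possible positions. Its counts may hold reads of MT-CO1 and are uncertain too.

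The nuclear genes that serve the mitochondrial genome did not pass. Of 32 genes of mitochondrial transcription, replication and RNA processing 18 were higher and 14 lower, with a median log2 change of 0.017, beside −0.0026 over all genes. TFAM had 545, 550.2 and 524 normalized read counts in controls and 594, 588 and 501 with 56-mer (log2 change 0.051, 95% interval −0.18 to 0.28), and POLRMT had a log2 change of 0.016 (95% interval −0.16 to 0.19). The smallest unadjusted p belonged to SUPV3L1, a helicase of the mitochondrial RNA degradosome, and MTPAP, the mitochondrial poly(A) polymerase. SUPV3L1 had 443, 415 and 484 in controls and 530.0, 536 and 546 with 56-mer, without overlap, and MTPAP had 588, 452 and 540.2 in controls and 674, 607 and 591 with 56-mer, also without overlap. Their log2 changes were 0.27 ± 0.12 and 0.25 ± 0.11 (limma adjusted p = 0.9996 for both).

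Nuclear subunits of the respiratory chain lay close to no change. Of 37 nuclear subunits of complex I 15 were higher and 22 lower, with a median of −0.017. Of 39 subunits of complexes II to V 17 were higher and 22 lower, with a median of −0.0091. NDUFA9, a complex I subunit, had the smallest unadjusted p of the former (0.32 ± 0.18), and ATP5ME, a small ATP synthase subunit, that of the latter (−0.24 ± 0.14). In both the groups overlapped.

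The import of proteins into mitochondria held the nuclear gene with the smallest unadjusted p among the lower ones. TIMM21, a subunit of the TIM23 complex that also escorts newly imported respiratory subunits to their assembly, had 428, 402 and 410.0 normalized read counts in controls and 271, 280.1 and 302 with 56-mer. The groups lay far apart, and the log2 change was −0.54 ± 0.13 (−0.50 without 56-mer 4), but it missed the threshold (limma adjusted p = 0.613). TIMM23, the channel of the same complex, went the other way, with 430.0, 439 and 511 in controls and 587, 530.2 and 587 with 56-mer and a log2 change of 0.31 ± 0.12. Of 34 tested import genes 9 were higher and 25 lower, with a median of −0.059, and 3 did not overlap, 2 of them lower, where the shares over all genes are 9.03% and 4.58%.

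The xenobiotic-metabolizing enzyme CYP1A1, the classic target of the aryl hydrocarbon receptor, was the gene outside the mitochondrial genome that came nearest to the threshold without passing. It had 924, 949 and 988 normalized read counts in controls and 1327, 1243 and 1289 with 56-mer, so that the groups were tight and well apart. Its mean was 1.35-fold higher, with a log2 change of 0.43 ± 0.089 (limma adjusted p = 0.0724). It passed without 56-mer 4 (log2 change 0.41, adjusted p = 0.0350), after correction for GC content and length (0.000333), without the filter on low values (0.0363) and with DESeq2 on the recovered reads (0.00309), but not with edgeR. Over the alternatives run its adjusted p ranged from 0.000333 to 0.999, the highest without control 1. The receptor AHR itself had 318, 245 and 367 in controls and 364, 284 and 273 with 56-mer, with overlap. Of 11 tested genes of this axis 7 were higher and 4 lower, with a median of 0.049 that was 0.013 without 56-mer 4. CYP1A2 lay between 46.7 and 82.7 in controls and between 60.1 and 137 with 56-mer, CYP1B1 between 301 and 363 and between 221 and 373, and both overlapped. AHRR, the repressor of the receptor, did not overlap, at 9.0 to 15 against 15 to 16.8, levels of few reads.

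The other genes nearest to the threshold belonged to no single process, and none passed. FUCA1, the lysosomal fucosidase, had 180.0, 157 and 212 normalized read counts in controls and 310.5, 294 and 250.1 with 56-mer and a log2 change of 0.64 ± 0.16 (limma adjusted p = 0.613). ZNF480, a zinc finger protein, had 277 to 374 in controls and 391 to 519 with 56-mer, and a log2 change of 0.53 ± 0.14. In neither did the groups overlap, and without 56-mer 4 the log2 changes were 0.57 and 0.43. On the lower side ALOX12B, a lipoxygenase known from the skin barrier, had 253, 236 and 190.0 in controls and 99, 159.9 and 165 with 56-mer, and ARHGAP33, a GTPase activating protein, had 271, 293 and 288 in controls and 151, 198 and 237 with 56-mer. Their log2 changes were −0.70 ± 0.19 and −0.56 ± 0.16. In both 56-mer 4 was the lowest, and without it the log2 changes were −0.46 and −0.39. CCDC71L had a log2 change of −0.57 ± 0.17 and NPDC1, named for its expression in neural proliferation and differentiation, one of −0.28 ± 0.087. The transcripts AC005943.2 and AC022211.5 had −0.50 and −0.52. Without 56-mer 4 the log2 changes of CCDC71L, NPDC1, AC005943.2 and AC022211.5 were −0.50, −0.15, −0.31 and −0.43. In ARHGAP33, CCDC71L, NPDC1, AC005943.2 and AC022211.5 the limma adjusted p was 0.9996.

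**Figure D4:**
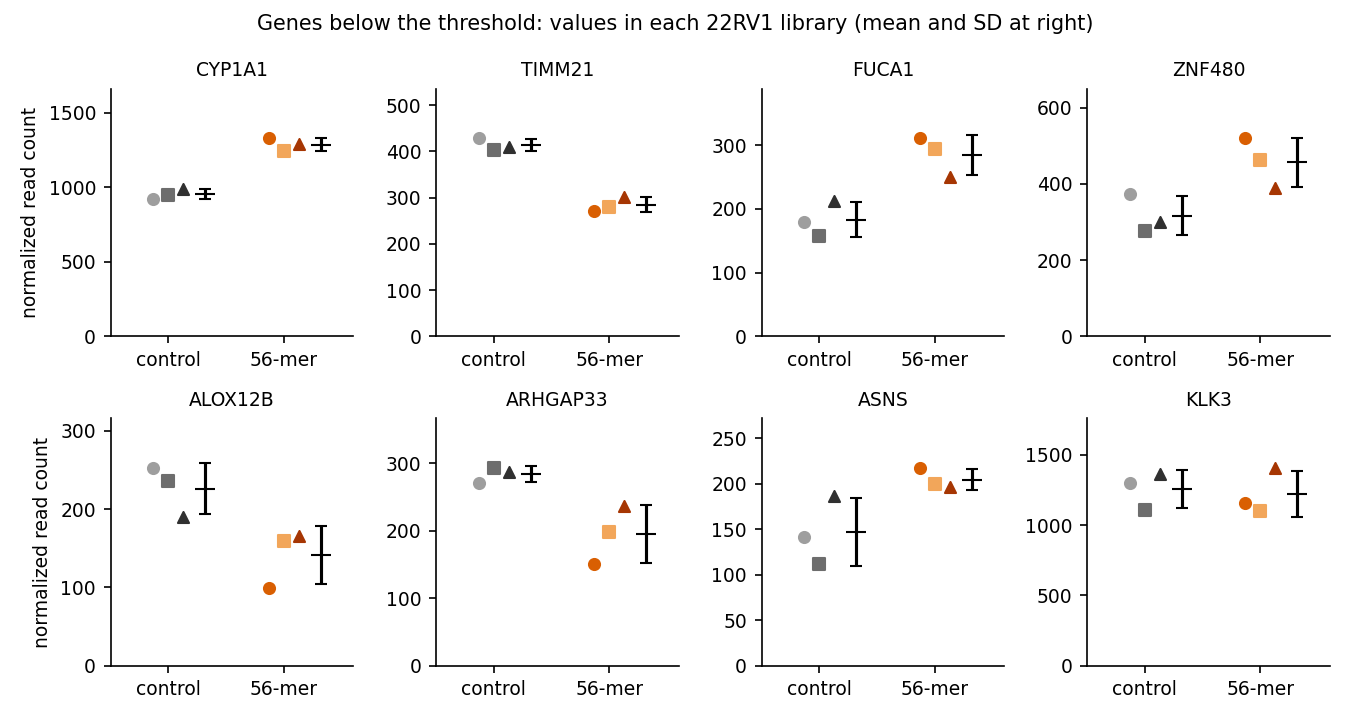
Normalized read counts (vertical axes, from 0) in each 22RV1 library for 8 genes below the threshold, controls in grey and 56-mer in orange, with circles, squares and triangles for libraries 1 to 3 and 4 to 6 and the mean with SD (n = 3) at the right of each group. In CYP1A1, TIMM21, FUCA1, ZNF480, ALOX12B, ARHGAP33 and ASNS the groups do not overlap, while KLK3 overlaps fully.

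By size rather than by p, the largest differences among genes with a mean of at least 100 and no overlap were also modest, and none passed. ITFG1-AS1, an antisense transcript that unstranded counting cannot part from ITFG1, had 85, 82.2 and 122 normalized read counts in controls and 196, 137 and 148 with 56-mer and a log2 change of 0.73 ± 0.22. RTBDN, a riboflavin-binding protein of the retina, had 109, 117 and 102 in controls and 194, 152 and 148 with 56-mer and a log2 change of 0.58 ± 0.20. FUCA1 and MTND4P12, given above, were the other 2 on the higher side, and ALOX12B was among the 4 on the lower side. Also lower were MIR6126, a microRNA precursor of which such a library reads at most the host RNA, with a log2 change of −0.75 ± 0.23, MCRIP1 with −0.67 ± 0.21 and the transcript AC005077.4 with −0.65 ± 0.22. MCRIP1, which binds the co-repressor CtBP, had 131, 203 and 187 in controls and 103, 94.3 and 127 with 56-mer. Without 56-mer 4 the log2 changes of ITFG1-AS1 and RTBDN were 0.58 and 0.45. Those of MIR6126, MCRIP1 and AC005077.4 were then −0.53, −0.63 and −0.59.

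Androgen-responsive transcripts, which mark hormone signalling in prostate cells, did not move as a group. Of 42 tested androgen-induced genes 21 were higher and 21 lower, with a median log2 change of 0.0012. KLK3 had 1297, 1109 and 1367 normalized read counts in controls and 1159.8, 1101 and 1409 with 56-mer, with the highest and the lowest of the 6 libraries both in the 56-mer group, and a log2 change whose 95% interval ran from −0.23 to 0.15. KLK2, a related kallikrein, had an interval from −0.24 to 0.13, the serine protease TMPRSS2 from −0.26 to 0.25 and the co-chaperone FKBP5 from −0.18 to 0.095. For KLK3, KLK2, TMPRSS2 and FKBP5 these intervals leave out a change of 1.5-fold in either direction.

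Within the list ELL2, an elongation factor of RNA polymerase II, had the smallest unadjusted p, with 1782, 1866 and 1943 in controls and 2309, 2126 and 2079 with 56-mer and a log2 change of 0.22 ± 0.076 (limma adjusted p = 0.9996), without overlap. HERC3, a ubiquitin ligase, was scarce, with 17, 10.2 and 16.7 in controls and 0, 2.73 and 3.54 with 56-mer. Of 17 tested androgen-repressed genes 9 were higher and 8 lower (median 0.010). FOLH1, the surface antigen PSMA, had a log2 change of 0.026 with an interval from −0.091 to 0.14, and MET, the hepatocyte growth factor receptor, had 0.24 ± 0.13 with overlap.

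Glutamine was the same in both groups, and the genes that carry and use it gave no call. Of 30 tested genes 14 were higher and 16 lower, with a median of −0.011. SLC38A1 and SLC38A2, sodium-coupled transporters of glutamine, had 0.14 ± 0.066 and 0.10 ± 0.051, and both were highest in 56-mer 4. Without that library their log2 changes were 0.060 and 0.034. SLC38A2 had 16043, 16546 and 16284 normalized read counts in controls and 19248, 16561 and 16799 with 56-mer, the 2 groups separated by a gap far smaller than their spread. SLC1A5, the exchanger that imports glutamine, had an interval from −0.17 to 0.14 and GLUL, glutamine synthetase, one from −0.070 to 0.30.

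In the ATF4 response to lack of amino acids 15 of 28 tested genes were higher and 13 lower (median 0.0024). Without overlap of the groups 5 were higher and 2 lower, where the shares over all genes are 4.45% and 4.58%. ASNS, asparagine synthetase, which uses glutamine, had 142, 112 and 187 in controls and 218, 199 and 196 with 56-mer. Control 3 came near the 56-mer libraries, and the log2 change was 0.51 ± 0.19 (limma adjusted p = 0.9996). INHBE, an activin subunit induced by stress, had 61, 52.8 and 53.7 in controls and 28.5, 47.8 and 24.7 with 56-mer and a log2 change of −0.76 ± 0.34. CHAC1, a glutathione-degrading target of ATF4, had an interval from −0.40 to 0.33. Of 20 cytosolic aminoacyl-tRNA synthetases, many of them ATF4 targets, 16 were higher, with a median of 0.041 and none past the test, and without 56-mer 4 12 were higher.

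A foreign nucleic acid can be read by sensors that switch on interferon genes, so these were listed too. Of 22 sensors and adaptors 13 passed the filter, 7 higher and 6 lower (median 0.0036). STING1, TLR7, TLR8, TLR9 and AIM2 were listed at 0 in every library, and CGAS reached at most 3.0 normalized read counts. Of 22 tested interferon-stimulated genes 12 were higher and 10 lower (median 0.022), and another 11 were below the filter, among them IFIT1 (at most 8.84) and CXCL10 (0 in every library). ISG15 had 929, 1031 and 1128 in controls and 1016, 1032 and 1132 with 56-mer and an interval of the log2 change from −0.14 to 0.23.

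In the cell cycle lists the phases leaned apart by little. Of 30 S phase genes 24 were lower, with a median log2 change of −0.069 (−0.075 without 56-mer 4), and 4 were lower without overlap, where the share over all genes is 4.58%. DTL, which marks proteins for destruction during replication, had 1031, 1220.2 and 952 in controls and 1005, 828 and 873 with 56-mer and a log2 change of −0.24 ± 0.10. Of 30 G2/M genes 19 were higher with a median of 0.034, and without 56-mer 4 13 were (−0.0064). The proliferation marker MKI67 had an interval from −0.088 to 0.18, MYC one from −0.13 to 0.16 and the cell cycle inhibitor CDKN1A one from −0.057 to 0.20. No gene of either phase passed.

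In cholesterol synthesis 20 of 25 genes were lower, with a median of −0.071 that was −0.072 without 56-mer 4, and none passed. SREBF2, the transcription factor of the pathway, had −0.10 ± 0.068. In the unfolded protein response 18 of 22 genes were higher (median 0.055), and without 56-mer 4 13 were (0.027). Its marker HSPA5 had an interval of the log2 change from −0.10 to 0.12. Of the 38 gene lists with at least 3 tested genes, 31 had a median within 0.1 of 0 on the log2 scale.

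Stress and metabolic programs gave no call either. Of 27 tested hypoxia-induced genes 14 were higher and 13 lower (median 0.016). BHLHE40, a circadian and hypoxia-responsive repressor, had 18, 21.3 and 22.9 normalized read counts in controls and 41, 77.9 and 25.6 with 56-mer and a log2 change of 1.04 ± 0.42, with 56-mer 6 close to the controls. CA12, a carbonic anhydrase of the cell surface, had 361, 332 and 378 in controls and 427, 385 and 479.9 with 56-mer, without overlap. Of 35 tested genes of lysosome and autophagy 18 were higher and 17 lower (median 0.0067). Besides FUCA1, the sulfatase ARSB had 109, 65 and 93.3 in controls and 31.2, 69.7 and 68 with 56-mer and overlapped. Of 19 heat shock genes 14 were higher (median 0.028), and 8 without 56-mer 4. HSPA1A, the inducible HSP70, had 163, 182 and 216 in controls and 259.6, 239 and 211 with 56-mer, with overlap. Among 20 tested NRF2 targets 12 were higher, among 22 p53 targets 14, among 22 glycolytic genes 10, among 26 genes of the TCA cycle 11 and among 22 immediate-early genes 16.

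**Figure D5:**
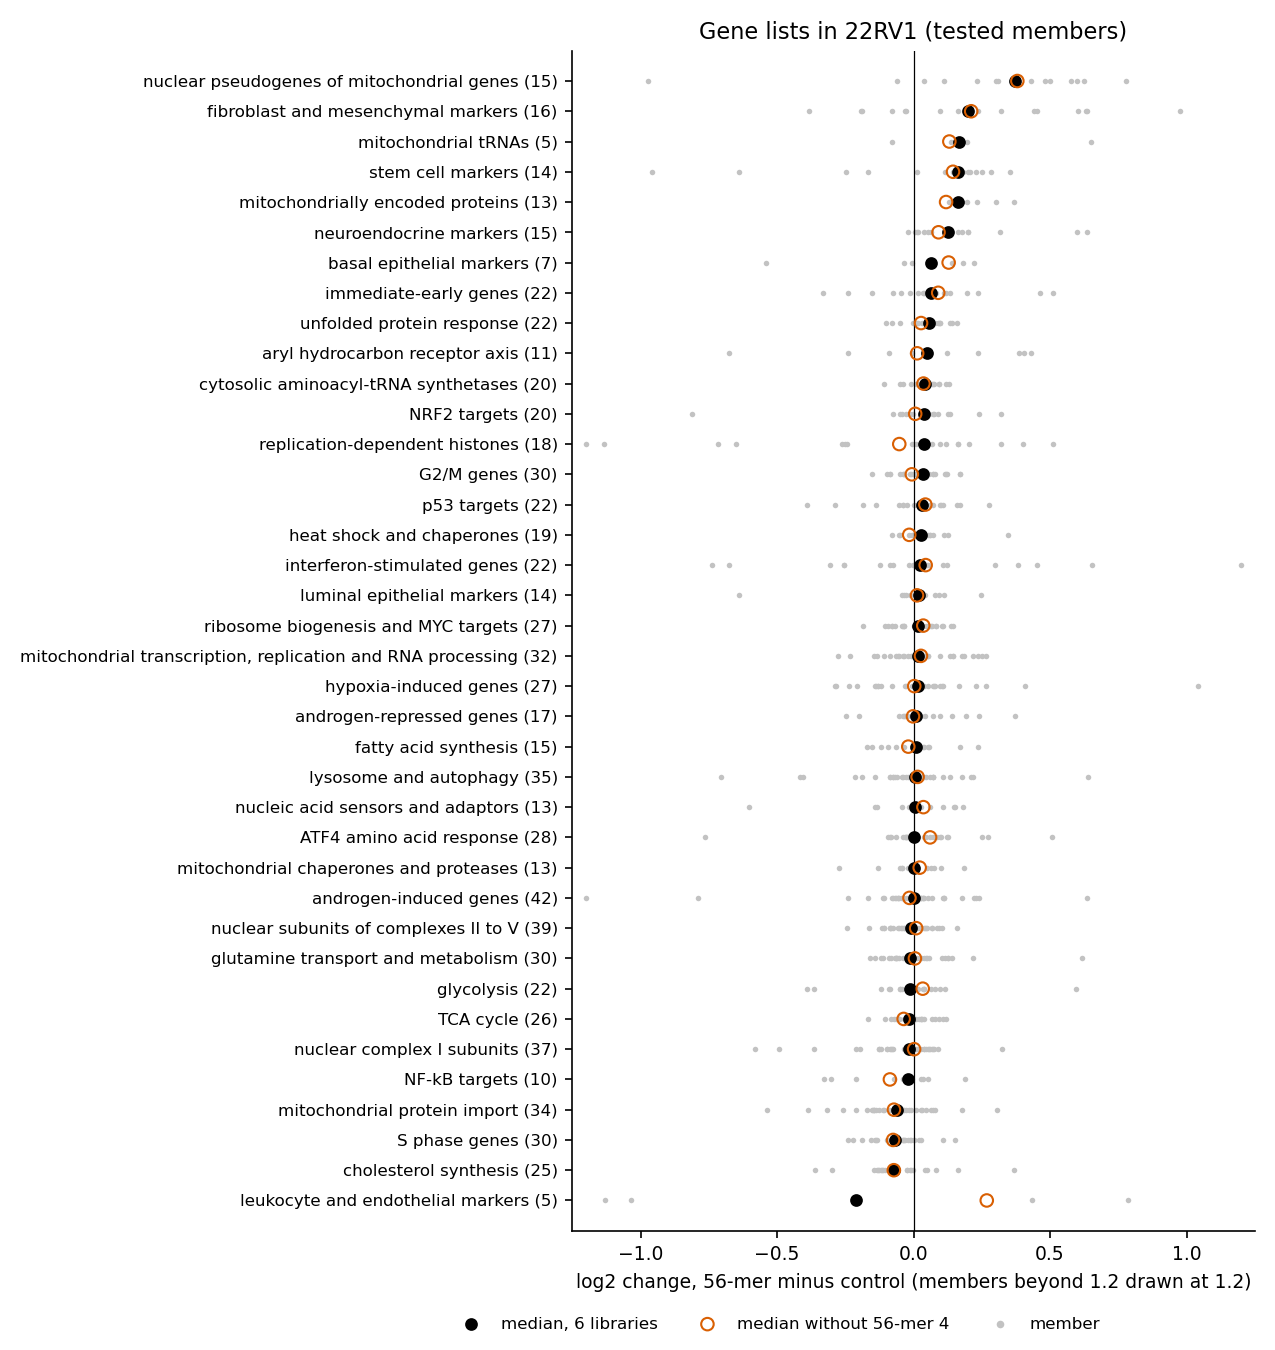
Fitted log2 change of 56-mer minus control (horizontal axis) for the tested members of each gene list with at least 3 tested genes in 22RV1 (grey points, number in brackets), with the median over 6 libraries (black) and without 56-mer 4 (orange rings). Most medians lie within 0.1 of 0. The mitochondrially encoded proteins lie at 0.16. Under quantile normalization they lie at 0.091 with 8 of 13 higher and 5 at 0, the value of any gene that keeps its rank.

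None of the markers of other lineages passed the test. Those of leukocytes and endothelium were mostly scarce, with 5 of 19 past the filter. Of 14 tested stem cell markers 10 were higher, with a median of 0.16 (0.14 without 56-mer 4). CD44, the hyaluronan receptor, had 1047, 1004 and 945 normalized read counts in controls and 1268, 1152 and 1097 with 56-mer, without overlap, and KLF4, a transcription factor of epithelia and of pluripotent cells, had 368, 391 and 389.7 in controls and 462, 519 and 423 with 56-mer. Their log2 changes were 0.23 ± 0.091 and 0.29 ± 0.12. Of 15 tested neuroendocrine markers 14 were higher (median 0.13, and 0.091 without 56-mer 4). CHGB, a granin of secretory granules, had 1086, 1165 and 1231 in controls and 1275, 1470.2 and 1262 with 56-mer, and POU3F2, a neural transcription factor, had 56, 85.3 and 56.3 in controls and 109.7, 102 and 91 with 56-mer, both without overlap. NEUROD1 and INSM1 were below the filter, at 7.0 and 3.52 or less.

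Of 16 tested fibroblast and mesenchymal markers 10 were higher (median 0.20), and the summed level of the list was 7187 to 7419 in controls and 7654 to 8413 with 56-mer. The sums did not overlap, and 56-mer 4 was the highest. FN1, fibronectin, had 2805, 2632 and 2786 in controls and 3609, 3232 and 2889.9 with 56-mer. Its log2 change was 0.24 ± 0.073 (limma adjusted p = 0.9996), and 0.16 without 56-mer 4. The fibroblast markers SPARC and ZEB2 were listed at 0 in every library, and PDGFRA and FAP reached at most 4.10 and 1.37. The sum of the listed leukocyte and endothelial markers was 94.4 to 145 in controls and 54.4 to 139 with 56-mer. Their part in the other results was not tested.

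The same dose was given for the same time to C4-2B, so the change could be compared between the lines. The limma test found no gene: 0 of 15527 passed the test of the difference of both log2 changes in 1 fit of the 12 libraries (0%), with 1227 at an unadjusted p under 0.05. The smallest adjusted p was 0.0908. The 2 genes called in 22RV1 were not shown to be particular to it. For MT-ND4L the log2 change was 0.37 in 22RV1 and 0.043 ± 0.13 in C4-2B, a difference of 0.33 with a 95% interval from −0.051 to 0.70 (limma adjusted p = 0.674). For MTATP6P1 the difference was 0.24, from −0.046 to 0.53 (0.680). Over the 13 mitochondrial protein genes the median difference was 0.015, and the smallest adjusted p of the difference in limma, 0.546, belonged to MT-CO1. In C4-2B alone the median log2 change of these genes was 0.12, with MT-ND5 and MT-ATP8 lower. MT-ND2 (0.27, limma adjusted p = 0.0254) and MT-CO3 (0.24, 0.0361) passed in that line. For TIMM21 the difference was −0.67 ± 0.18 (0.534), with a log2 change of 0.13 in C4-2B, and for CYP1A1 it was 0.032 ± 0.56.

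The genes with the smallest p of the difference did little in 22RV1. IGFBPL1, related to the insulin-like growth factor binding proteins, had 103, 76.1 and 107 normalized read counts in controls and 103, 135 and 79.5 with 56-mer in 22RV1, with overlap. In C4-2B it had 27.8, 26.2 and 16.1 in controls and 0, 0 and 0.97 with 56-mer, levels of few reads. Its difference of 4.37 ± 0.74 did not pass (limma adjusted p = 0.0908). TXNIP, which binds thioredoxin and limits glucose uptake, had 4672, 4566 and 4740.2 in controls and 4654, 4397 and 4592 with 56-mer in 22RV1. Its groups overlapped again, with an interval of the log2 change from −0.16 to 0.088. In C4-2B its log2 change was 0.59 ± 0.11, and the difference of −0.63 ± 0.11 did not pass (limma adjusted p = 0.0961). The stress cytokine GDF15 had 0.12 in 22RV1 and −0.36 in C4-2B, a difference of 0.49 ± 0.090 (0.109). The transcription factor SOX4 had 0.12 and −0.53, a difference of 0.65 ± 0.12 (0.112). In C4-2B alone TXNIP, GDF15 and SOX4 passed (limma adjusted p = 0.0254, 0.0241 and 0.0254), and IGFBPL1 did not. With 1 of the 12 libraries left out, between 0 and 13 genes passed the test of the difference, the 13 without C4-2B 56-mer 4.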

How the data were processed

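RNA was sequenced from 3 control and 3 56-mer cultures of 22RV1, and from the same groups of C4-2B. The authors deposited 1 table per line with 60315 entries of reads divided by a size factor per library (a signal in the sense of scaled read counts), per the file headers, and log2 fold changes, p-values and adjusted p-values of their own comparison, for which the submitters' processing notes name DESeq. The aligner, the genome build, the strand setting and the treatment of reads with several matches are not stated in the labels, the processing notes or the headers, that is, not given in the sources used here. The deposited columns of fold changes and p-values were used only where the authors' deposited table is named. All values were whole multiples of a step per library (100% within a tolerance of 0.01), and dividing by that step gave whole reads.

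Genes with at least 10 normalized read counts in at least 3 of the 6 libraries of 22RV1 were tested on log2(normalized read count + 1) with limma 3.58.1 (R 4.3.3, trend and robust settings) and Benjamini-Hochberg adjustment, and changes were called at an adjusted p under 0.05. A fold change on this scale understates the change of low genes. The difference between the lines was the interaction in 1 fit of the 12 libraries. Single values were tested by exact two-sided permutation. Alternatives were edgeR 4.0.16, DESeq2 1.42.0 and voom on the recovered reads, other pseudocounts, filters and scalings, a correction of each library for GC content and length, and leaving out each library. Sequences were matched by symbol to GENCODE 29 transcripts and aligned with Biopython 1.88. The fitting scripts were tested on simulated data.

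Genes are named by rule. These are those past the threshold, the proteins and ribosomal RNAs of the mitochondrial genome, the highest-ranked and largest changes whose groups do not overlap, the 2 genes of smallest p in each list, fixed anchors, and the 4 smallest p of the difference between lines. Some of them are not reported here. Members, lists and anchors were chosen with earlier results of these data known.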

Additional observations from a re-analysis of the deposited data

How the results depend on the processing

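The count of 2 called genes in 22RV1 moved with several choices. It was 8 after correction for GC content and length, 11 without the filter on low values, 1 without the mitochondrially encoded entries, and 0 with an adjusted p threshold of 0.01, with an absolute log2 change of at least 1, without the trend and robust settings (904 genes at an unadjusted p under 0.05) or with a spread shared by the 12 libraries (285 at that p). It was 2 with quantile normalization, equal totals, voom and edgeR on recovered reads, and 3 with DESeq2. With 1 library left out it ranged from 0 to 11. It was 0 without control 1, 2 or 3 (632, 682 and 668 genes at an unadjusted p under 0.05) or without 56-mer 5 (868), 5 without 56-mer 4 and 11 without 56-mer 6. The count of 0 genes in the difference between the lines was 5 after the GC and length correction, 5 without the filter, and 1 without the trend and robust settings or with quantile normalization. It ranged from 0 to 13 with 1 library left out, with 13 without C4-2B 56-mer 4, 5 without C4-2B 56-mer 6, 1 without each C4-2B control and 0 without any 22RV1 library. The difference in the mitochondrial share ranged from 0.397 to 0.779 percentage points with 1 library left out. Beyond the fewer samples or genes tested, the cause of these shifts was not tested. Of 1233 values of single named genes under alternatives 45 had the other sign, and 108 of 124 genes kept their sign in each. No paired analysis was possible because the control and 56-mer libraries share no replicate number.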

Other observations

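In the authors' deposited table of 56-mer against control in 22RV1, all 38270 entries with an adjusted p-value carry the same one, 0.999995. An unadjusted p-value under 0.05 stands beside 792 entries of the authors' deposited table, and Benjamini-Hochberg adjustment of those unadjusted p-values leaves 3 under 0.05, the smallest at 0.0029. The unadjusted p-values that the authors' deposited table gives to the leading genes are 7.58e-08 for MTATP6P1, 1.55e-07 for MT-ND4L, 4.16e-07 for CYP1A1 and 3.39e-05 for MT-CYB. The log2 fold changes of the authors' deposited table are 0.49, 0.37, 0.43 and 0.24 in the same order, and 96.5% of the tested genes have the same sign there as in the limma fit.

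A few genes passed when 1 library was left out but not over all 6, and they are named here after their values were seen. PDK4, the kinase that shuts the pyruvate dehydrogenase complex when fat is burned, had 4718, 5323 and 4517 normalized read counts in controls and 6367, 6228 and 4858 with 56-mer. It was high in 56-mer 4 and 5 but not in 56-mer 6, without which its log2 change was 0.38 (limma adjusted p = 0.00760), and it also passed over all 6 without the filter on low values (0.0442). RN7SL1, the RNA of the signal recognition particle, had 2741, 2663 and 3284 in controls and 2549.8, 3886 and 4588 with 56-mer. It was high in 56-mer 5 and 6 and below the controls in 56-mer 4, without which its log2 change was 0.55 (limma adjusted p = 0.00133). HOXA10-AS, an antisense transcript of the HOXA cluster, had 122, 155 and 110.0 in controls and 62.5, 41 and 108 with 56-mer, with 56-mer 6 near the controls. Without 56-mer 6 its log2 change was −1.32 (limma adjusted p = 0.0469). GAS5-AS1, antisense to the host gene of small nucleolar RNAs GAS5, had 335, 362 and 505 in controls and 209.7, 219 and 401 with 56-mer, with overlap. Without 56-mer 6 its log2 change was −0.88 (limma adjusted p = 0.0111), and that of the pseudogene MTCO1P12 was 0.64 (limma adjusted p = 0.0469). Also without that library MT-CO1, MT-ND4, MT-ND5 and MT-CYB passed, and NEAT1, the long RNA that scaffolds paraspeckles, had a log2 change of −0.33 (limma adjusted p = 0.0486).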
